A study of Mus musculus with 7 samples.

Results

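The genes described here encode the 3 proteins of the mouse zona pellucida (Zp1, Zp2 and Zp3) and 3 factors that oocytes secrete (Gdf9, Bmp15 and Oosp1). They were taken by symbol, 6 of the 31053 genes in the count tables, by a rule that uses no measured level. The study profiled single cells of gonads from untreated wild-type C57BL/6J mice at 7 ages, with 1 droplet library an age. The first, E11.5, is labelled as gonad, and the others, every other embryonic day (E) from E12.5 until E18.5 and then postnatal days (P) 1 and 5, as ovary, and none of the groups carries an allele or an agent. The gonads of an age were pooled and dissociated with trypsin for 20 to 80 min, longer at the older ages, and the suspension was passed through 70 and 30 µm strainers before about 10000 cells were loaded.

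The zona pellucida is the extracellular coat that a growing oocyte lays down around itself, and that sperm later bind and cross. ZP2 and ZP3 build its filaments, ZP1 links them, and ZP2 carries the region to which sperm bind. GDF9 and BMP15 are ligands of the TGF-beta family by which the oocyte acts on the granulosa cells around it, and OOSP1 is a small secreted protein of oocytes. In mouse oocytes the transcription factor FIGLA, which binds E-boxes with a partner, is needed for the zona genes, and the homeobox factor NOBOX for Gdf9 and other oocyte genes.

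All 6 genes are protein coding (GENCODE vM21 on GRCm38). Zp1 (ENSMUSG00000024734) lies on the minus strand of chromosome 19 from 10914287 to 10920632, and Oosp1 (ENSMUSG00000041857) on the minus strand of the same chromosome from 11667460 to 11691150. Zp2 (ENSMUSG00000030911) lies on the minus strand of chromosome 7 from 120126772 to 120145291, and Zp3 (ENSMUSG00000004948) on the plus strand of chromosome 5 from 135980099 to 135988624. Gdf9 (ENSMUSG00000018238) lies on the plus strand of chromosome 11 from 53431023 to 53437904, and Bmp15 (ENSMUSG00000023279) on the minus strand of chromosome X from 6314107 to 6320721. No other annotated gene overlaps any of them. The only neighbour within 2000 bases is Uqcrq, a gene for a subunit of mitochondrial complex III, which starts 192 bases from Gdf9 on the opposite strand.

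The RefSeq table of promoters (GRCm38.p6) held 3 of the 6 members, Zp3, Bmp15 and Oosp1. The 250 bases before the RefSeq start of each were searched on both strands for the E-box CANNTG, including its form CACGTG, for the homeobox sites of NOBOX (TAATTG with its variants TAATTA and TAGTTG), for the LHX8 site TGATTG, and for the TATAA box. The sequences are shown because the regulators named above bind such letters and were measured in the same germ cells; capitals mark every match. Each is written 5′ to 3′ along the gene, for Zp3 chr5:135979855-135980098 on the plus strand, for Bmp15 chrX:6320725-6320974 on the minus strand and for Oosp1 chr19:11691151-11691301 on the minus strand. The stretch of Oosp1 stops 99 bases short of the RefSeq start and that of Zp3 6 bases short, where the GENCODE transcripts begin.
Zp3 upstream: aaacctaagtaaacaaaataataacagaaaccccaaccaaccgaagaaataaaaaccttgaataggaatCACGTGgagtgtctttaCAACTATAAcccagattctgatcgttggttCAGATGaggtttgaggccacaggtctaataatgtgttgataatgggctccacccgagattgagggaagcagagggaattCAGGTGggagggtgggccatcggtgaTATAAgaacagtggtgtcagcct
Bmp15 upstream: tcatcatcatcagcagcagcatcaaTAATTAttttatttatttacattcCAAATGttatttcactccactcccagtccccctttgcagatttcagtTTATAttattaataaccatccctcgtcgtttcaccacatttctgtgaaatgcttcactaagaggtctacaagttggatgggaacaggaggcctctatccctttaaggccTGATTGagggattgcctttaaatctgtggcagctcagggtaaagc
Oosp1 upstream: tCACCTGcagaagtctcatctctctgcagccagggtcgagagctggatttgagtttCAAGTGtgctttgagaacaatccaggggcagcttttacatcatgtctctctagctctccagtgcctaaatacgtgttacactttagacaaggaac

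Positions count from the RefSeq start, with -1 the last base before it. Zp3 held an E-box of the form CACGTG at -181 and 2 others, CAGATG at -134 and CAGGTG at -55. Its TATAA stood at -29, a second TATAA at -160, and the latter overlapped CAACTA at -164, which is TAGTTG on the other strand. Bmp15 held TAATTA at -225, CAAATG at -201, the TATAA box on the other strand, which reads TTATA here, at -154 and TGATTG at -45. Oosp1 held 5 E-boxes, at -249, -194, -93, -59 and -48, of which the first 2 are in the stretch shown, and none of the other motifs. An E-box was present in 66.2% of the 32851 promoters of the table, CACGTG in 6.02%, TAATTA in 4.84%, TAGTTG in 5.69%, TAATTG in 7.17%, TGATTG in 12.7% and TATAA in 22.8%. A match describes the letters and does not show binding.

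Germ cells were taken as cells with at least 3 unique molecular identifiers (UMIs) of Dazl and Ddx4 together, genes for germ cell RNA-binding and RNA helicase proteins. In order of age they numbered 9, 321, 2669, 1016, 439, 244 and 62, of 50823 cells with at least 200 genes. Cells with no UMI of either gene, called somatic, numbered 8774, 3075, 5501 and 5991 in the last 4 libraries, and the cells with 1 or 2 such UMIs were kept apart. A level is the summed UMIs of a gene over all UMIs of those cells, scaled to a total of 1000000 (CPM). Parentheses hold its exact 95% Poisson interval. It is a count of 3′ ends of molecules and is not scaled to gene length, so that differences between genes also carry differences in capture. With 1 library an age there is no replicate and no test between ages: intervals cover counting error alone, and age cannot be told apart from library.

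From E12.5 on, each of 7 further germ cell markers (Mael, Taf4b, Sycp3, Rnf17, Stk31, Figla and Dppa5a) was detected in the germ cells, with a summed level of 2244 to 4949 CPM against 15.9 to 49.6 CPM in somatic cells. Somatic cells with 3 or more UMIs of these markers numbered 187, 50, 48 and 17 from E16.5 to P5 (2.13, 1.63, 0.873 and 0.284%). Germ cells were also deeper, with a median of 25098, 12107, 20902 and 60954 UMIs from E16.5 to P5 against 6625 to 10545 in somatic cells. Among germ cells, 21.3, 11.6, 23.0 and 37.1% in the same order held 3 or more UMIs of markers of another cell type, at P5 mostly of the mesenchymal list (22 of 62 cells). This cut was not scaled to depth, and P5 germ cells were the deepest. The summed level of the mesenchymal list in germ cells was 95.9, 46.3, 68.6 and 43.3 CPM in the same order. Whether the cells with such markers were the deeper germ cells was not tested. The E16.5 library stood apart in its barcodes, of which 9 recurred in another library against 224 to 468 in each of the others.

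Zp3 was the most abundant member by P5 and was nearly absent before birth. In germ cells it was at 0 UMIs at E11.5 (9 cells, which allows up to 13.4 CPM), 0.809 CPM (0.297 to 1.76) at E12.5, 0.439 CPM (0.251 to 0.713) at E14.5, 0 UMIs at E16.5 (up to 0.119 CPM), 0.908 CPM (0.295 to 2.12) at E18.5, 97.9 CPM (90.2 to 106) at P1 and 1172 CPM (1137 to 1209) at P5. P1 and P5 thus lay above the intervals and limits of all 5 prenatal libraries. From E18.5 to P1 the level of Zp3 was 108-fold higher (46.0 to 333), and from P1 to P5 11.97-fold higher (10.98 to 13.1). With every cell thinned to 5000 UMIs the first ratio was 31.6 and the second 19.1. With cells weighted equally the first was 63.7. The thinned value of the first rests on few UMIs: another random draw left 2 Zp3 UMIs at E18.5 and 52 at P1.

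Zp2 was the zona transcript with the highest level at E18.5. Zp3 had a few UMIs in germ cells earlier, at E12.5, where it was 7.67-fold above somatic cells (1.95 to 31.8). The germ cell level of Zp2 was 0 UMIs at E11.5, E12.5 and E14.5 (at E14.5 up to 0.0824 CPM), 1 UMI or 0.0395 CPM at E16.5, 4.54 CPM (2.94 to 6.70) at E18.5, 93.0 CPM (85.5 to 101) at P1 and 676 CPM (649 to 704) at P5. At E18.5 its 25 UMIs were in 19 of 439 germ cells (4.33%; exact binomial interval 2.63 to 6.68), and none was found in 3075 somatic cells, so that its level there was at least 35.5-fold higher in germ cells. Zp2 was 115-fold higher at E18.5 than at E16.5 (18.8 to 4713, from a single UMI), 20.5-fold higher at P1 than at E18.5 (13.7 to 31.9; 12 with cells thinned to 5000 UMIs) and 7.27-fold higher at P5 than at P1 (6.63 to 7.99).

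Zp1 was the lowest of the zona genes at P1 and P5. Its germ cells held 0 UMIs at E11.5 and E12.5 (at E12.5 up to 0.404 CPM), 4 at E14.5 (0.110 CPM, 0.0299 to 0.281), 1 at E16.5, 2 at E18.5 (0.363 CPM, 0.0440 to 1.31), 35 at P1 (5.76 CPM, 4.01 to 8.01) and 842 at P5 (245 CPM, 229 to 262). Zp1 was 15.9-fold higher at P1 than at E18.5 (4.08 to 136; 26.5 without the top cell of each library). With cells thinned to 5000 UMIs this ratio was 9.68 in 1 random draw. Another draw left 0 Zp1 UMIs at E18.5 and 3 at P1, too few for a ratio. Zp1 was 42.5-fold higher at P5 than at P1 (30.3 to 61.4), the largest of the P5 to P1 ratios of the zona genes, whose intervals do not overlap its own.

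From E14.5 to E18.5 the germ cell level of Gdf9 was not above that of somatic cells beyond the counting interval, and at P1 and P5 it was. In germ cells it was 0 UMIs at E11.5, 0.270 CPM (0.0327 to 0.974) at E12.5, 0.329 CPM (0.170 to 0.576) at E14.5, 1.66 CPM (1.197 to 2.25) at E16.5, 1.63 CPM (0.747 to 3.10) at E18.5, 41.0 CPM (36.0 to 46.4) at P1 and 479 CPM (456 to 502) at P5. In somatic cells it was 0.425, 0.907, 1.599, 1.51, 2.38, 0.938 and 2.94 CPM in the order of the ages. The ratio of germ to somatic cells was 0.206 (0.102 to 0.383) in the E14.5 library, 1.10 (0.758 to 1.56) in that of E16.5 and 0.685 (0.298 to 1.40) in that of E18.5. It was 43.7 (31.2 to 62.6) in the P1 library and 163 (136 to 196) in that of P5.

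The germ cell level of Gdf9 was 25.1-fold higher at P1 than at E18.5 (13 to 55.5; 12.8 with cells thinned to 5000 UMIs) and 11.7-fold higher at P5 than at P1 (10.2 to 13.4). The thinned ratio rests on few UMIs, since another random draw left 2 Gdf9 UMIs at E18.5 and 24 at P1. A single cell weighed on the P5 value. The deepest germ cell of that library, with 154669 UMIs, held 542 of its 1647 Gdf9 UMIs (32.9%). Without that cell Gdf9 was at 336 CPM and the ratio to P1 was 8.61, and without the germ cells holding 3 or more UMIs of a somatic list the level was 229 CPM and the ratio 5.75.

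Bmp15, the partner ligand of Gdf9, stayed low at every age. Its germ cells held 0 UMIs at E11.5 and E12.5, 1 at E14.5 (0.0275 CPM), 22 at E16.5 (0.870 CPM, 0.545 to 1.32), 0 at E18.5 (up to 0.545 CPM), 1 at P1 (0.165 CPM, 0.00417 to 0.917) and 15 at P5 (4.36 CPM, 2.44 to 7.19). The 22 UMIs of E16.5 were in 22 different cells of 1016 (2.17%), and somatic cells of that library held 17, at 0.186 CPM, which put germ cells 4.67-fold higher (2.37 to 9.36). Of these 17, however, 13 were in mesenchymal cells, a class defined below by markers. Bmp15 was at 0.636 CPM (0.339 to 1.09) in them, an interval that overlaps that of germ cells. The interval at E14.5 lay below that of E16.5, and that at E18.5 (0 to 0.670 CPM) overlapped it. The E16.5 library is the one with separate barcodes, so that age and library cannot be told apart in this value. Bmp15 was 26.5-fold higher at P5 than at P1, with an interval from 4.08 to 1115 because P1 rests on 1 UMI. Without germ cells holding somatic markers the ratio was 7.38, and without the cell with the most Bmp15 UMIs at each age it was at least 7.90.

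Oosp1 was seen above a single UMI in germ cells of P5 alone among the 7 libraries. Its germ cells held 1 UMI at E14.5 and 0 at E11.5, E12.5, E16.5, E18.5 and P1, where 0 allows up to 0.494 CPM at P1. At P5 they held 90 UMIs, 26.2 CPM (21.0 to 32.2), at least 53.0-fold above P1. These UMIs came from 13 of 62 cells, and the deepest cell alone held 43 of them (47.8%). Without that cell Oosp1 was at 14.3 CPM and at least 28.8-fold above P1, and without the cells holding somatic markers it was at 13.6 CPM and at least 18.9-fold above P1.

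**Figure D1:**
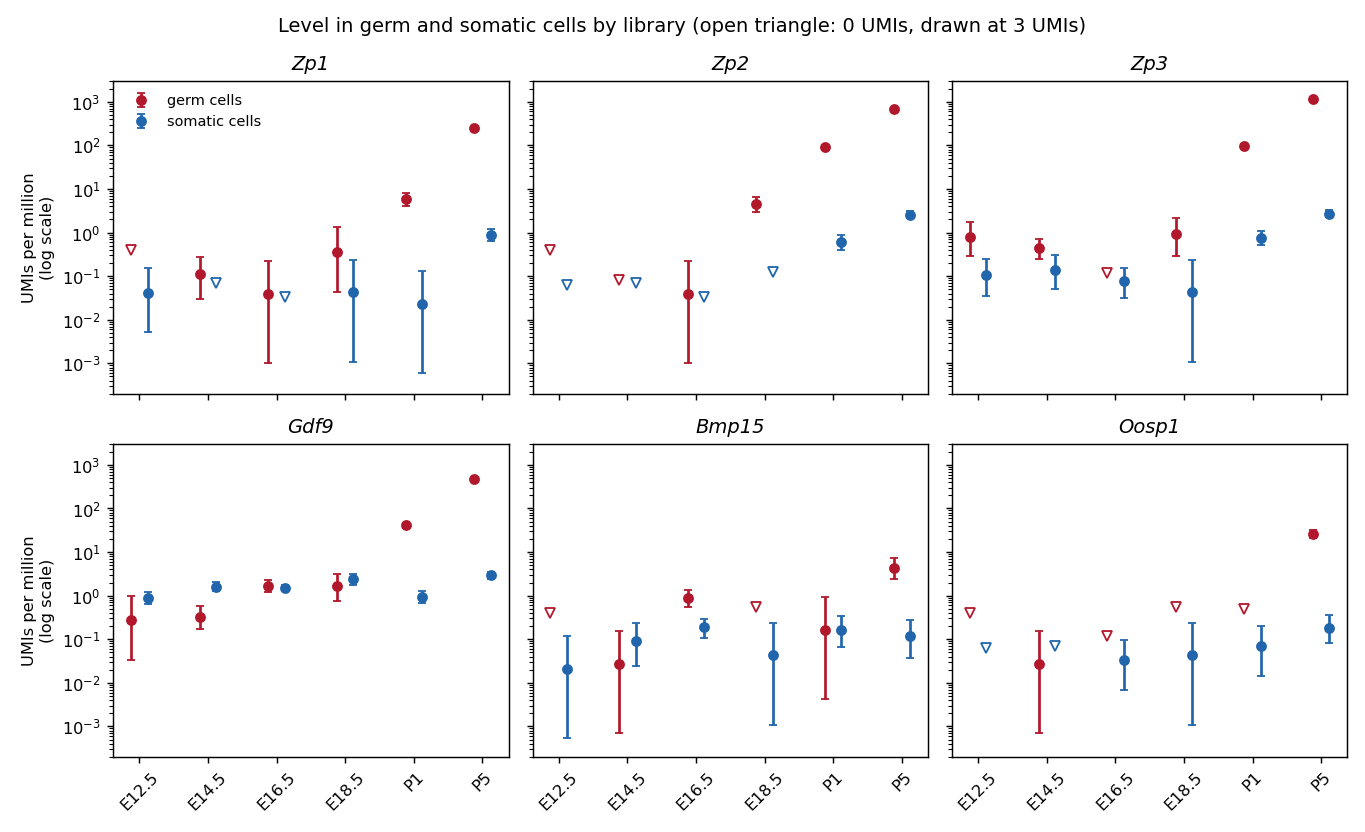
Level of each member (CPM, log axis) in germ cells (red) and somatic cells (blue) of the 6 ovary libraries, with 95% exact Poisson intervals as bars that cover counting error alone. Open triangles are counts of 0, drawn at the level of 3 UMIs. Zp1, Zp2, Zp3 and Gdf9 stood highest at P1 and P5 in germ cells, from 5.76 CPM of Zp1 at P1 to 1172 CPM of Zp3 at P5, while the intervals of Gdf9 in both kinds of cells overlapped at E16.5 and E18.5.

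At P5 the order of the levels in germ cells was Zp3, Zp2, Gdf9, Zp1, Oosp1 and Bmp15, and no interval of a member overlapped that of its neighbour in this order. Without germ cells holding somatic markers, Gdf9 (229 CPM) and Zp1 (222 CPM) were close to each other. At P1 Zp3 and Zp2 did not differ beyond their intervals, followed by Gdf9 and Zp1, with Bmp15 and Oosp1 at 1 and 0 UMIs. At E18.5 only Zp2 stood above 2 CPM, and its interval overlapped that of Gdf9. Of all UMIs of the 6 members in P5 germ cells, Zp3 made up 45.05%, Zp2 26.0%, Gdf9 18.4%, Zp1 9.40%, Oosp1 1.005% and Bmp15 0.168%. At P1 Zp2 and Zp3 were nearly equal, at 39.1% (36.6 to 41.7) and 41.2% (38.6 to 43.8), and Zp1 made up 2.42%.

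For a view over all genes, germ cell levels with 1 CPM added were compared between ages, over genes with at least 20 UMIs in both ages together. From E18.5 to P1, 4 members (Zp1, Zp2, Zp3 and Gdf9) were at least 4-fold higher and 0 were at least 4-fold lower, while Bmp15 and Oosp1 had too few UMIs. Of the 12077 genes compared, 2.38% were 4-fold higher and 1.61% were 4-fold lower. Zp1 (2 UMIs at E18.5), Zp3 (5) and Gdf9 (9) were compared only because they were high at P1, so that their count says nothing further. Zp2 passed the minimum at E18.5 alone and ranked 22 by fold. From P1 to P5, 5 members were at least 4-fold higher, 0 were lower and Bmp15 had too few UMIs, beside 2.89% of 11396 genes higher and 1.43% lower. Oosp1, with 0 UMIs at P1, was compared only because it was high at P5. Zp1, Zp2, Zp3 and Gdf9 passed the minimum at P1 alone, and ranked 7, 107, 47 and 54. With 10 CPM added in place of 1, Zp1 was no longer 4-fold higher from E18.5 to P1, nor Oosp1 from P1 to P5.

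The share of germ cells in which a member was detected was also higher at P5 than at P1. Zp2 was found in 48.0% of P1 germ cells (41.5 to 54.4) and 91.9% of P5 germ cells (82.2 to 97.3), Zp3 in 30.3% and 91.9%, Gdf9 in 27.9% and 82.3%, and Zp1 in 9.02% and 72.6%. Bmp15 was found in 0.410% and 19.4%, and Oosp1 in 0% and 21.0%, where 0 of 244 cells allows up to 1.23%. P5 germ cells were deeper, and so the shares were set side by side after every cell was thinned to 5000 UMIs, which left out 40 of 244 cells at P1 and 3 of 62 at P5. Then Zp2 was found in 27.9% and 67.8%, Zp3 in 15.2% and 72.9%, Gdf9 in 9.80% and 64.4%, Zp1 in 1.47% and 40.7%, Bmp15 in 0.490% and 3.39%, and Oosp1 in 0% and 6.78%; the thinned shares of Bmp15 rest on 1 and 2 cells and are too small to compare. In somatic cells thinned likewise, the highest share of any member was 1.35%, for Zp2 at P5.

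Single germ cells varied widely. At P5 the median CPM over cells was 410 for Zp3 (lowest 0, highest 4801), 277 for Zp2 (0 to 2327), 153 for Gdf9 (0 to 3504) and 127 for Zp1 (0 to 719), and it was 0 for Bmp15 (highest 122) and Oosp1 (highest 278). At P1 the median was 0 for every member, and the highest cell held 1201 CPM of Zp3, 552 of Zp2, 310 of Gdf9 and 111 of Zp1. The 24 P1 cells with the most Zp3 UMIs held 81.7% of them, against 51.9% of the Zp2 UMIs in as many cells, so that the P1 level of Zp3 rested on fewer cells than that of Zp2. One P1 cell alone held 92 of 595 Zp3 UMIs (15.5%), and without it Zp3 was at 83.8 CPM.

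**Figure D2:**
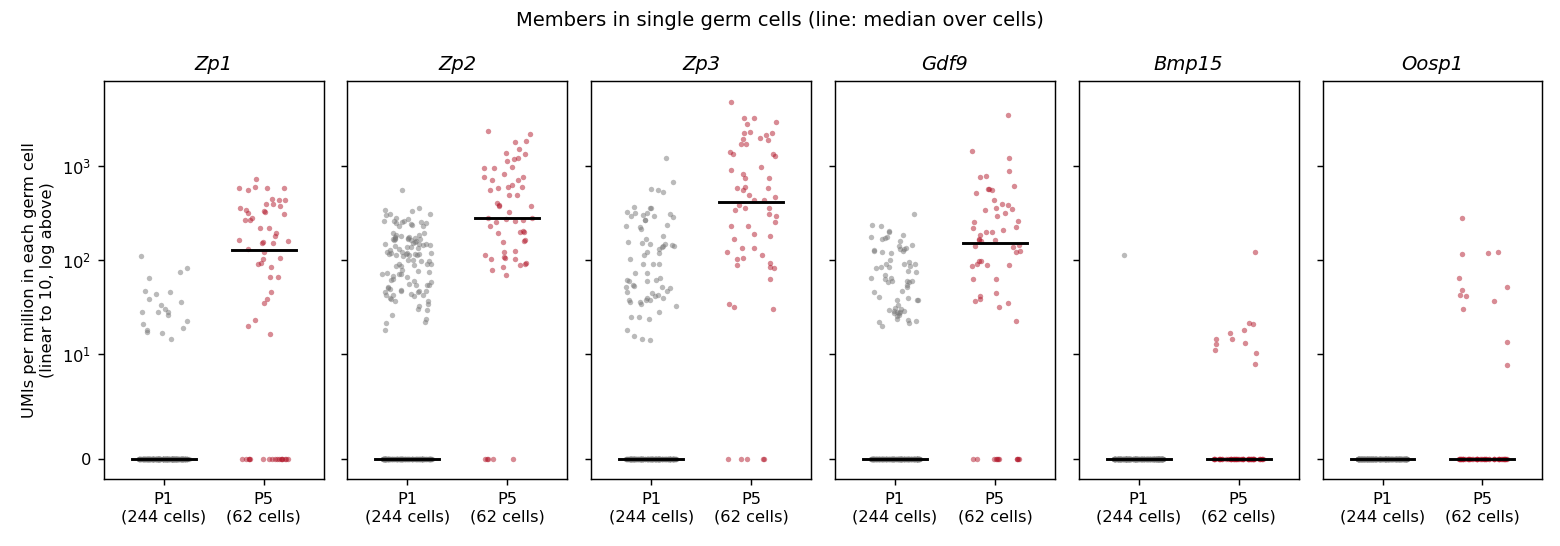
CPM of each member in single germ cells at P1 (gray, 244 cells) and P5 (red, 62 cells), on an axis that is linear to 10 and logarithmic above. Each point is a cell and the line is the median over cells, which was 0 for every member at P1 and 410 for Zp3 at P5.

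The members were often, but not always, found in the same cells. At P1, 68 of the 117 germ cells with Zp2 also held Zp3, and 39 germ cells held a single member. Pairs were not counted after thinning. Of the 74 P1 germ cells with a Zp3 UMI, 68 (91.9%) also held Zp2, against 49 of the 170 without Zp3 (28.8%). Of the 68 with Gdf9, 65 held Zp2 and 49 held Zp3. In both pairs the positive cells were deeper, with a median of 42316 UMIs in cells with Zp3 and 16150 in those without. At P5 all 45 cells with Zp1 held both Zp2 and Zp3, while of the 17 without Zp1 12 held Zp2 and 12 held Zp3. Each of the 12 cells with Bmp15 and of the 13 with Oosp1 held all of Zp1, Zp2, Zp3 and Gdf9. These genes were common at P5 in any case: of the 50 cells without Bmp15, 90% held Zp2, 90% Zp3, 78% Gdf9 and 66% Zp1. Their intervals overlapped those of the 12 cells with Bmp15 (73.5 to 100%). The 12 cells with Bmp15 had a median of 83388 UMIs, against 56035 in the other 50.

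None of the members was seen in 117 of 244 germ cells at P1 (48.0%) and in 3 of 62 at P5, and the most seen in a cell was 4 at P1, in 17 cells, and 6 at P5, in 6 cells. After thinning to 5000 UMIs, 123 of 204 P1 cells (60.3%) and 6 of 59 P5 cells (10.2%) held none. Over the 62 P5 cells, levels on the log2 scale with 10 CPM added correlated between Zp2 and Zp3 with r = 0.82 and rho = 0.91, between Zp2 and Gdf9 with r = 0.83 and rho = 0.85, and between Zp1 and Zp2 with r = 0.81 and rho = 0.86. These cells share a library, and the levels of these 4 genes also followed the total UMIs of the cell, with r from 0.48 to 0.68.

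Levels in CPM were therefore read in groups of germ cells ranked by total UMIs. In the 21 P5 cells with the fewest UMIs (2912 to 44231), the middle 21 and the 20 with the most (70830 to 154669), Zp3 was at 379, 764 and 1624 CPM, and Zp2 at 268, 573 and 835 CPM. Gdf9 was at 85.1, 275 and 703 CPM, Zp1 at 72.2, 206 and 308 CPM, and Oosp1 at 2.58, 11.2 and 41.5 CPM. These members were thus higher in CPM in the deeper cells, with intervals that did not overlap between the first and last group. The deepest cell lies in the last group: without it Oosp1 there was at 19.4 CPM (13.2 to 27.3), which overlaps the first group (0.0653 to 14.4), and Gdf9 at 441 CPM, still above it. Sycp3, a gene of the meiotic chromosome axis, was at 1346, 1213 and 1116 CPM, and Figla at 903, 1053 and 1204 CPM. Nobox was at 199, 279 and 352 CPM. Its relative rise from the first to the last group, and not its level, lay between that of Figla and those of the members.

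The same order held at P1, where the 82 cells with the fewest UMIs, the middle 81 and the 81 with the most held Zp3 at 7.24, 17.6 and 149 CPM, Zp2 at 23.5, 56.3 and 120 CPM and Gdf9 at 3.62, 13.7 and 59.2 CPM. Zp1 was at 1.81, 1.71 and 8.23 CPM there, the first on a single UMI. Sycp3 was at 2163, 2244 and 1922 CPM in these groups. The deepest P1 group, with 30870 to 84037 UMIs a cell, held less of every one of these members than the middle P5 group, with 44770 to 69536 UMIs. Whether UMIs per cell followed cell size, capture or doublets was not tested.

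**Figure D3:**
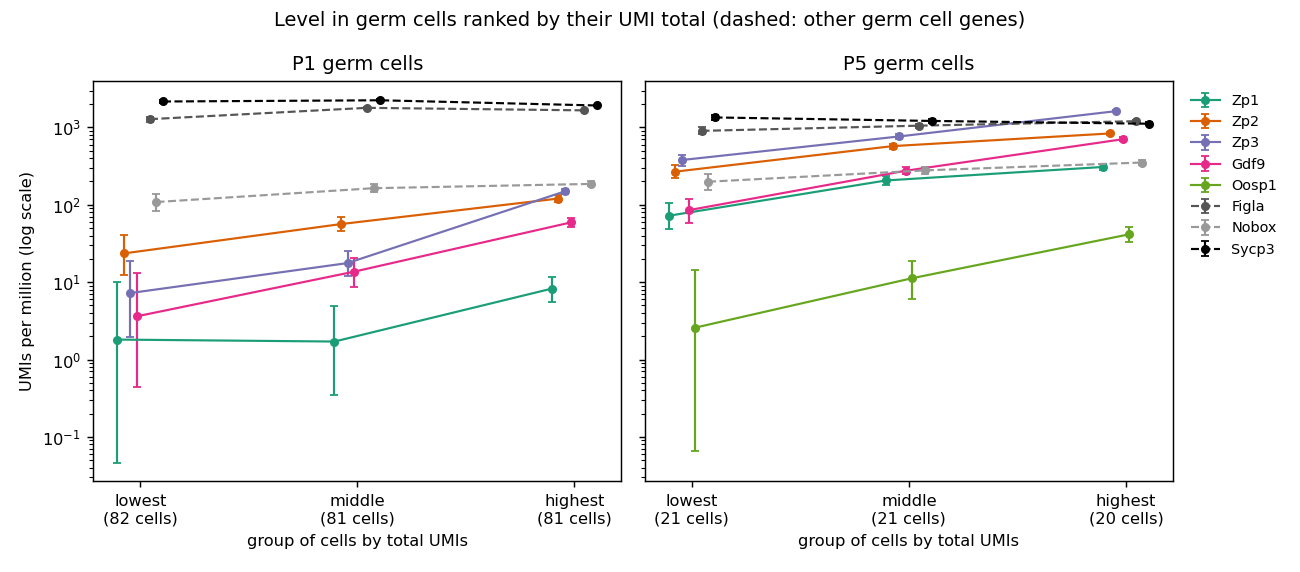
Level (CPM, log axis) in germ cells of P1 (left) and P5 (right) split into 3 groups by their UMI total, for members with UMIs (solid) and for Figla, Nobox and Sycp3 (dashed), with 95% exact Poisson intervals. Zp3 was at 379 CPM in the P5 cells with the fewest UMIs and at 1624 CPM in those with the most, while Sycp3 was at 1346 and 1116 CPM.

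Somatic cells held the members at a low level, which for Zp1, Zp2 and Zp3 was higher at P5 than in any earlier library. For Gdf9 the P5 interval overlapped that of E18.5 (1.80 to 3.10), and Bmp15 was no higher at P5 than at E16.5. At P5 it was 2.69 CPM for Zp3 (2.22 to 3.22), 2.60 CPM for Zp2 (2.14 to 3.12), 2.94 CPM for Gdf9 (2.45 to 3.501), 0.904 CPM for Zp1 (0.643 to 1.24), 0.185 CPM for Oosp1 and 0.116 CPM for Bmp15. Zp2 had 0 UMIs in the somatic cells of all 5 prenatal libraries, 0.610 CPM at P1 and 2.60 CPM at P5. Zp3 in somatic cells was between 0.0426 and 0.137 CPM before birth and 0.751 CPM at P1.

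Set against these values, germ cells at P5 stood 436-fold higher for Zp3 (363 to 529), 271-fold for Zp1 (196 to 384), 261-fold for Zp2 (216 to 318), 163-fold for Gdf9, 141-fold for Oosp1 (68.6 to 337) and 37.6-fold for Bmp15 (13 to 132). With cells weighted equally in place of by depth these ratios were lower by more than 1.5 times for Zp3 (196), Zp1 (178), Gdf9 (68.5) and Oosp1 (60.04). Without the germ cells holding somatic markers that of Gdf9 was 77.9, that of Bmp15 15.3 and that of Oosp1 73.3. All 6 members were at least 4-fold higher in germ than in somatic cells at P5 with 1 CPM added, beside 9.9% of 15301 genes, and Zp3 ranked 2 among them. With 10 CPM added Bmp15 and Oosp1 were no longer past 4-fold. With 5 and 8 somatic UMIs, these members were compared only because they were high in germ cells, so that their count says nothing further. At P1 Zp1, Zp2, Zp3 and Gdf9 were at least 4-fold higher with 1 CPM added, beside 8.93% of 15211 genes, and Bmp15 and Oosp1 had too few UMIs. Zp1, with 1 somatic UMI, was compared only because it was high in germ cells. With 10 CPM added Zp1 was no longer past 4-fold. Germ to somatic ratios at P1 were 245 (41.3 to 9970, with 1 somatic UMI) for Zp1, 152 (103 to 235) for Zp2 and 130 (91.4 to 192) for Zp3.

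Somatic cells were then split by markers. A cell belonged to a class with at least 3 UMIs of its list and fewer than 3 of each other list, with Wnt6, Kitl and Foxl2 for pregranulosa cells, Nr2f2, Col1a1 and Dcn for mesenchymal cells, and Cx3cr1, Lcn2, Ptprc and Tyrobp for immune cells. At P5 Zp2 was at 3.07 CPM (2.26 to 4.08) in pregranulosa and 1.76 CPM (1.09 to 2.69) in mesenchymal cells. Zp3 was at 1.90 CPM (1.27 to 2.72) and 2.43 CPM (1.63 to 3.49) in these classes, and at 4.59 CPM (1.49 to 10.7) in immune cells. Zp1 was at 0.850 and 0.670 CPM in pregranulosa and mesenchymal cells. The intervals of the marked classes named here overlapped for each gene. Against all other somatic cells, however, Zp2 was 0.603 times as high in mesenchymal cells (0.356 to 0.977) and Zp3 0.607 times as high in pregranulosa cells (0.384 to 0.933), while Zp2 in pregranulosa cells was at 1.32 (0.885 to 1.95). Those other cells include 1517 that fell in no class, in which Zp3 was at 3.89 CPM (2.86 to 5.17) and Gdf9 at 4.47 CPM (3.36 to 5.83), both above the intervals of pregranulosa cells. In 245 immune cells Zp1 had 0 UMIs, which allows up to 2.76 CPM.

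**Figure D4:**
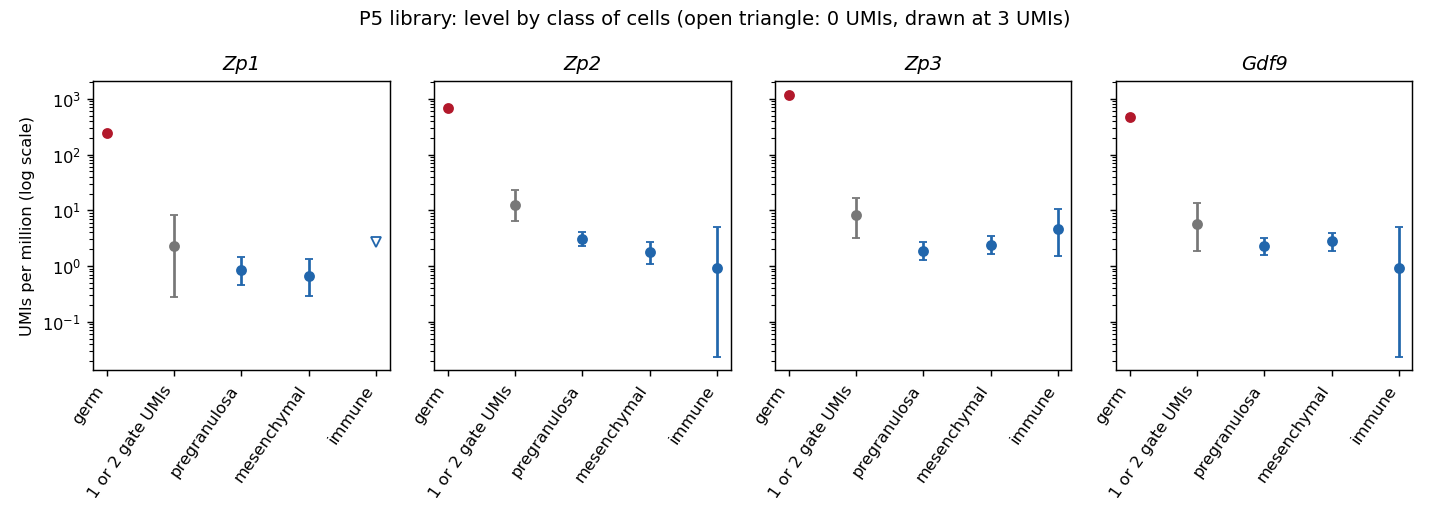
Level (CPM, log axis) of Zp1, Zp2, Zp3 and Gdf9 at P5 in germ cells (red), in the 97 cells with 1 or 2 UMIs of Dazl and Ddx4 (gray) and in 3 somatic classes (blue), with 95% exact Poisson intervals and an open triangle for 0 UMIs. The 3 classes stayed below 5 CPM for each gene, against 245 to 1172 CPM in germ cells.

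The mix of members in somatic cells was close to that of germ cells for some and not for others. Of the members' 407 UMIs in P5 somatic cells, Zp1 made up 9.58% (6.90 to 12.9) and Zp2 27.5% (23.2 to 32.1), both overlapping their shares in germ cells. Zp3 made up 28.5% (24.2 to 33.2) against 45.05% (44.0 to 46.1) in germ cells, and Gdf9 31.2% (26.7 to 35.9) against 18.4% (17.6 to 19.2). Gdf9 thus took a larger share in the somatic cells of P5 than in germ cells, as it did at P1, with 36.7% (27.7 to 46.5) against 17.2% (15.3 to 19.3).

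Gdf9 was in somatic cells already before any zona gene was measured above 1 CPM there. Summed over the libraries from E11.5 to E18.5, somatic cells held 346 Gdf9 UMIs, 1.16 CPM (1.04 to 1.29), against 25 of Zp3, 24 of Bmp15, 8 of Zp1, 5 of Oosp1 and 0 of Zp2. Within each of these libraries the intervals of Gdf9 in pregranulosa and mesenchymal cells overlapped. Its level was the higher in pregranulosa cells at E18.5 (2.63 CPM against 0.987 CPM) and in mesenchymal cells at E12.5 (1.68 CPM against 0.951 CPM). Summed over these libraries Gdf9 was at 1.53 CPM (1.26 to 1.83) in pregranulosa and 0.974 CPM (0.785 to 1.195) in mesenchymal cells. The classes were spread unevenly, with 169 pregranulosa and 4219 mesenchymal cells at E11.5. Class and library thus cannot be told apart in these sums. At P1 Gdf9 was 2.46-fold higher in pregranulosa than in all other somatic cells (1.23 to 4.81). At P5 that ratio was 0.692 (0.455 to 1.03). The other cells of P1 include 841 erythroid cells with Gdf9 at 0.229 CPM. The P1 interval of pregranulosa cells (1.73 CPM, 1.005 to 2.76) overlapped that of mesenchymal cells (0.614 CPM, 0.247 to 1.27). The 24 prenatal somatic UMIs of Bmp15 were in mesenchymal cells for 18 of them (0.191 CPM, 0.113 to 0.301) and in pregranulosa cells for 1 (0.0132 CPM). Of these 18, however, 13 were from the E16.5 library, and without it mesenchymal cells held 5, at 0.0676 CPM (0.0219 to 0.158). The source of these low levels was not tested.

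The members were set beside lists of genes with related roles, chosen by role. In the list of other zona and egg surface genes, 0 of the 7 with enough UMIs were 4-fold higher from E18.5 to P1, and 2 of 8 were from P1 to P5, beside the same backgrounds as above. They were Astl, which encodes the protease that cleaves ZP2 after fertilization, at 1.98 and 43.0 CPM at P1 and P5, and Oosp2, a relative of Oosp1, at 1.32 and 54.9 CPM. With 12 and 8 UMIs at P1, both were compared only because they were high at P5. The list's median log2 fold was 0.96 from E18.5 to P1 and 1.57 from P1 to P5, beside medians of -0.10 and -0.02 over all genes compared.

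Of the list of 9 transcription regulators of oocyte genes, 4 are given first for their role. Figla in germ cells was at 135, 749, 1665 and 1115 CPM in the libraries from E16.5 to P5, when Zp3 was at 0, 0.908, 97.9 and 1172 CPM. Nobox was at 6.29, 83.7, 173 and 308 CPM, Lhx8 at 14.04, 169, 303 and 238 CPM and Sohlh1 at 12.9, 258, 672 and 670 CPM. Each of these 4 stood above 80 CPM at E18.5, an age at which no member exceeded 5 CPM. So did Ybx2 (131 CPM) and Foxo3 (89.3 CPM), while Taf4b (78.3 CPM) and Sohlh2 (30.5 CPM) did not. Taf4b was lower at each age after E16.5, from 197 CPM there to 29.9 CPM at P5. Before, it was at 31.2, 30.1 and 52.9 CPM at E11.5, E12.5 and E14.5. Its highest level was thus in the E16.5 library, which stood apart in its barcodes. Tbpl2, a germ cell form of the TATA-binding protein, was at 0 UMIs in germ cells of E16.5 and E18.5 and at 2.96 and 8.43 CPM at P1 and P5. Of the list of regulators, 0 of 8 were 4-fold higher from E18.5 to P1, beside 2.38% of all genes compared. From P1 to P5, 0 of 9 were, beside 2.89%. The median log2 fold of the list was 1.06 and then -0.35.

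The list of oocyte growth and maternal genes includes genes whose products the egg stores for the embryo. From E18.5 to P1, 12 of 14 were at least 4-fold higher, beside 2.38% of all genes compared. From P1 to P5, 10 of 15 were, beside 2.89%, and 0 were lower in either step. Mos, Padi6, Khdc3, H1foo, Npm2, Omt2a and Bcl2l10 had 2 to 14 UMIs at E18.5, and Zar1 had 10 at P1. In those steps they were compared only because they were high at the later age, so that their count says nothing further. Padi6, a component of the cytoplasmic lattices of the egg, was at 0.726, 87.2 and 1530 CPM from E18.5 to P5, and Ooep, of the subcortical maternal complex, at 35.2, 157 and 3117 CPM. Zar1, which encodes a regulator of maternal mRNA, was at 0, 1.65 and 160 CPM, and H1foo, the oocyte linker histone, at 0.726, 56.3 and 322 CPM. Npm2, which encodes an egg histone chaperone, was at 2.54, 19.1 and 470 CPM. The median log2 fold of the list was 2.29 and 2.50, the highest of the 6 lists in both steps. These medians include the genes that were compared only through the later age.

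Other ligands of the TGF-beta family were lower than Gdf9 in germ cells of P5. Of this list, 0 of 7 with enough UMIs were 4-fold higher from E18.5 to P1 and 1 was lower, Bmp2, at 5.63 and 0.494 CPM. Of all genes compared, 2.38% were higher and 1.61% lower in this step. With 3 UMIs at P1, Bmp2 was compared only because it was higher at E18.5, where somatic cells held it at 55.5 CPM. From P1 to P5, 2 of 5 were higher, beside 2.89% of all genes compared. They were Bmp6 at 1.15 and 8.14 CPM and Tgfb2 at 6.75 and 38.1 CPM. Bmp6, with 7 UMIs at P1, was compared only because it was high at P5. The highest germ cell level of another ligand of the list at P5 was thus that of Tgfb2, against 479 CPM of Gdf9.

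The receptors through which GDF9 and BMP15 act were present in the pregranulosa cells. At P5 Bmpr2, the type 2 receptor of both, was at 68.9 CPM in pregranulosa and 17.1 CPM in germ cells, and Tgfbr1, the type 1 receptor of GDF9, at 62.01 and 25.9 CPM. Bmpr1b, the type 1 receptor of BMP15, was at 12.2 CPM in pregranulosa cells, a level inside the interval of P5 germ cells (9.04 to 16.8 CPM). Its germ cell level at P1 was 2.14 CPM, with a log2 fold of 2.10 to P5. It was the 1 gene of 15 in this list that was 4-fold higher from P1 to P5, beside 2.89% of all genes compared. With 13 UMIs at P1, Bmpr1b was compared only because it was high at P5. Smad3, which carries the GDF9 signal to the nucleus, was at 148 CPM in pregranulosa and 10.8 CPM in germ cells. Smad2 and Smad4 of the same list went the other way. They were at 26.1 and 37.05 CPM in pregranulosa cells and at 35.5 and 67.1 CPM in germ cells. Furin, which encodes a protease of the family that cleaves such ligand precursors, was at 17.8 CPM in pregranulosa and 34.9 CPM in germ cells. All somatic cells, pregranulosa cells among them, held Bmpr2 at 54.2, Tgfbr1 at 46.2, Bmpr1b at 6.56, Smad3 at 72.1 and Furin at 18.3 CPM. In the step from E18.5 to P1, 0 of 17 of the list were past 4-fold, beside 2.38% of all genes compared higher and 1.61% lower.

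Of genes that GDF9 is known to induce in granulosa cells of later follicles, pregranulosa cells at P5 held 1 UMI of Has2, 3 of Ptgs2, 1 of Ptx3 and 0 of Grem1. They held 19 of Tnfaip6, at 1.24 CPM, against 8.55 CPM in all somatic cells. Of the 5 genes of this list with enough UMIs in germ cells, 3 were at least 4-fold lower at P5 than at P1. Of all genes compared in this step, 1.43% were. These 3 are targets of BMP signals: Id1 was at 631 and 76.4 CPM, Id2 at 358 and 62.8 CPM and Id3 at 331 and 43.6 CPM. The other genes compared, Fst and Kitl, were lower at P5 too, with log2 folds of -1.926 and -1.835. With 7 and 8 UMIs at P5, both were compared only because they were higher at P1. From E18.5 to P1, 0 of 5 were past 4-fold in either direction, beside 2.38% of all genes compared higher and 1.61% lower.

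**Figure D5:**
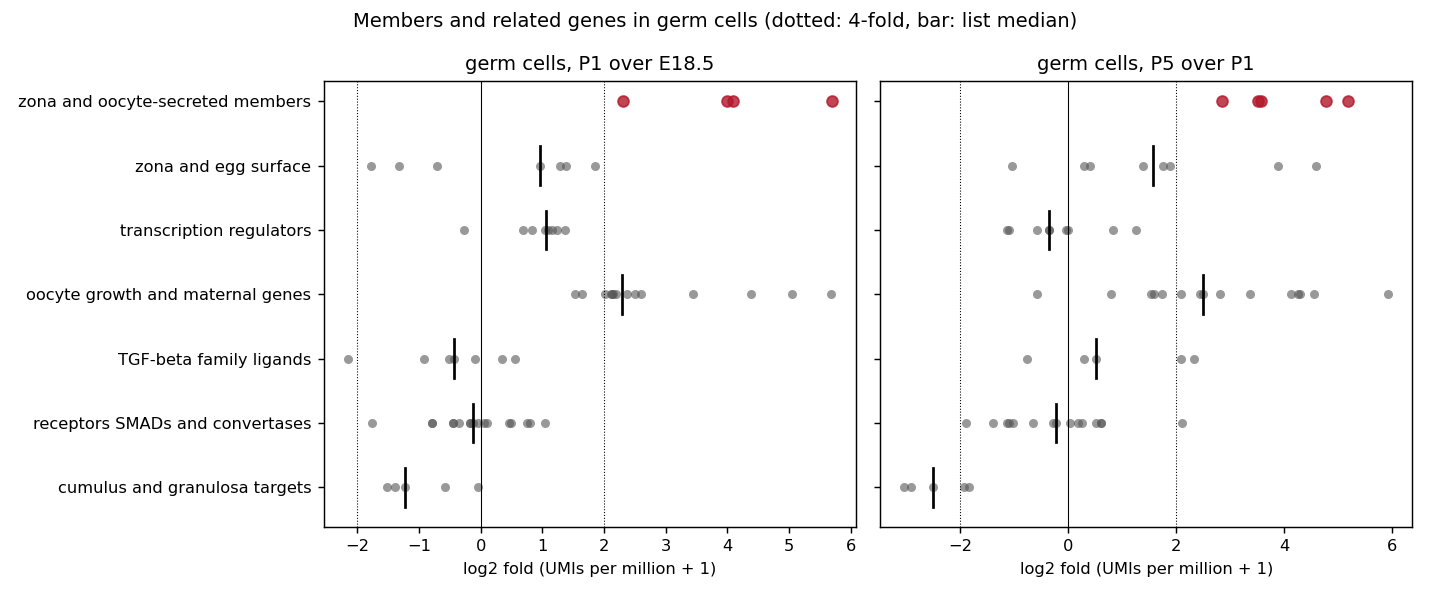
Log2 fold in germ cells (CPM with 1 added) from E18.5 to P1 (left) and from P1 to P5 (right) for the members (red) and for genes of 6 lists (gray), each with at least 20 UMIs in both ages together. Bars mark list medians and dotted lines a 4-fold difference. The members lay between 2.31 and 5.70 in the first step and between 2.85 and 5.18 in the second, and of the lists the oocyte growth and maternal genes had the highest median, 2.29 and 2.50. Some members and list genes reached 20 UMIs only through the age at which they were high.

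Genes with the pattern most like each member were found by the correlation of 14 levels, those of germ and somatic cells in the 7 libraries, over 17369 genes with at least 100 UMIs. For Zp1 they were Gm47432, Khdc1b, Olfr976, D6Ertd527e and Astl, for Zp2 Ankrd36, AC159282.1, Mocos, H1foo and Tcl1b2, and for Zp3 Noto, 4732465J04Rik, C130026I21Rik, Gm47272 and H1foo. For Gdf9 they were Dnah17, Slco1a5, Myh2, C86187 and 4732465J04Rik, and for Oosp1 Eif4e1b, Elobl, Cd7, E330034G19Rik and Oosp2. These correlations lay between 0.9975 and 0.9999, over profiles of which most are near 0 for these genes, so that a few germ cell levels set them. Khdc1b, for example, was at 0.363, 4.61 and 192 CPM in germ cells from E18.5 to P5. Bmp15, with 75 UMIs over the 14 profiles, was too low to be ranked.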

How the data were processed

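Single-cell libraries of 7 ages were analysed, 1 library an age. The authors aligned the reads to mm10 and the deposited values are raw UMI counts per gene and cell from Cell Ranger 3.1.0; the deposited gene and barcode lists (other text) name their rows and columns. No column belonged to another sample (0). Library totals ran from 31960736 to 124390521 UMIs. Here cells with at least 200 genes were kept and doublets were not removed. Counts were summed over germ or somatic cells and given per 1000000 UMIs (CPM), with 95% exact Poisson, exact binomial or exact conditional intervals, and 3 UMIs as the limit for a count of 0. Folds used 1 CPM added and at least 20 UMIs in both groups together. The fold calls and the coverage of the ratio interval were tested on simulated data, and the other steps were not. Python 3.11.15, numpy 2.4.6, scipy 1.17.1, pandas 2.3.3 and matplotlib 3.10.9 were used. No test was run, for want of replicates. The members, lists and markers were chosen with earlier results of these data known. The text names the members, list genes past 4-fold, needed for their role or set beside these, and the 5 genes most like each member. Alternatives were other germ cell gates, cell filters, thinning, scaling, a mean over cells, 10 CPM added, and leaving out cells with somatic markers or the top cell. Protein sequences were not used here, and not every class of somatic cells is reported here.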

Additional observations from a re-analysis of the deposited data

Results flagged for a closer look

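The ratio of Gdf9 in germ to somatic cells was 0.206 at E14.5, below 1, and 43.7 at P1 and 163 at P5, above 1; the difference between ages was not tested, since each age is 1 library.

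In the 97 P5 cells with 1 or 2 UMIs of Dazl and Ddx4, which entered neither the germ nor the somatic group, Zp2 was at 12.7 CPM (6.34 to 22.7) and Zp3 at 8.08 CPM (3.25 to 16.6), above the 2.60 and 2.69 CPM of somatic cells. In the 369 P5 barcodes left out for having under 200 genes, Zp3 was at 8.29 CPM (4.14 to 14.8), from 11 UMIs.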

How the results depend on the processing

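No paired analysis was possible because each age has 1 library, and leaving out a library leaves no age to compare. Of 174 values of 16 ratios under alternatives, 144 lay within the counting interval of the reported value, 30 did not, and all 174 stayed above 1. After thinning to 5000 UMIs only 14 of the 16 ratios could be computed, since the rest had too few UMIs. With cells thinned to 5000 UMIs, P1 over E18.5 was 12 for Zp2, 31.6 for Zp3 and 12.8 for Gdf9, P5 over P1 was 8.31, 19.1 and 8.80, and germ over somatic cells at P5 was 205, 358 and 120, in the same order. The thinned P1 over E18.5 values of Zp3 and Gdf9 rest on few E18.5 UMIs and differ between random draws. Without germ cells holding somatic markers, P5 over P1 was 6.14 for Zp2, 9.46 for Zp3, 5.75 for Gdf9 and 18.9 for Oosp1, and germ over somatic cells 316 for Zp3 and 77.9 for Gdf9. With the mean over cells, P5 over P1 was 8.50 for Zp2, 17.1 for Zp3 and 31.8 for Oosp1, and germ over somatic cells 178 for Zp1, 200.3 for Zp2, 196 for Zp3, 68.5 for Gdf9 and 60.04 for Oosp1. Scaled by the median of ratios, the latter was 191 for Zp2, 320.2 for Zp3 and 119 for Gdf9. Without the cell with the most UMIs of the member, P5 over P1 was 8.61 for Gdf9 and 28.8 for Oosp1, and germ over somatic cells 114 for Gdf9. In cells of 1000 or more genes and no more than 10% mitochondrial UMIs the last was 198. With 10 CPM added in place of 1, 61 genes in place of 288 were 4-fold higher and 11 in place of 195 lower from E18.5 to P1, 67 in place of 329 higher and 23 in place of 163 lower from P1 to P5, and 450 in place of 1359 and 546 in place of 1515 higher in germ than somatic cells at P1 and P5. Leaving out the top cell, the deepest cell, the E16.5 library or germ cells with pregranulosa markers was chosen after seeing the data; the last moved none of 16 ratios past its interval. Bmp15 and prenatal levels rest on few UMIs, and P5 on 62 germ cells.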
